A study of Mus musculus with 8 samples.

Results

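Myosin light chains and the kinases that phosphorylate them were followed in mouse atria in which Chd4 had been targeted for deletion after birth. The set comprised 10 genes, picked by symbol from the 54532 genes of a count table: the essential light chains Myl4, Myl3, Myl1 and Myl6, the regulatory light chains Myl7, Myl2, Mylpf and Myl9, and the kinases Mylk3 and Mylk. Each symbol stood on a single gene identifier, and all 10 genes had enough reads to be tested.

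Bulk RNA sequencing had been carried out on poly(A) RNA of dissected right and left atria, 4 libraries per group. Every mouse carried the Chd4flox/flox alleles, so the controls, titled WT by the submitters, were floxed animals too. On postnatal day 2 the KO mice received AAV9:Nppa-Cre and the control mice AAV9:Nppa-EGFP. Expression of either insert was driven by the Nppa promoter, which is active in atrial cardiomyocytes, while the RNA came from mixed cell types of the whole tissue. Cre was present only in KO and EGFP only in control, so effects of either protein and the loss of Chd4 cannot be told apart. Neither age at collection nor the number of animals in a library is stated in the labels, and p-values measure the spread between these libraries, which may be technical.

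Muscle myosin is a motor built from a pair of heavy chains, each with an essential and a regulatory light chain wrapped around its lever arm. The light chains are exchanged between muscle types: MYL7 and MYL4 are the regulatory and essential chains of the atrium, MYL2 and MYL3 those of the ventricle and slow muscle, MYLPF and MYL1 those of fast skeletal muscle, and MYL9 and MYL6 those of smooth muscle and many other cells. Phosphorylation of the regulatory chain tunes contraction; cardiac myosin light chain kinase is encoded by Mylk3, and the smooth muscle and non-muscle kinase, which calmodulin activates, by Mylk.

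Promoter sequence of all 10 genes was held in RefSeq (GRCm38.p6, 13 start sites). In the 250 bases before the start, searched on both strands, a CArG box, the binding element of serum response factor, was found in 4 of the 10 genes (Myl7, Myl3, Myl9 and Myl6). It was found in 1.47% of 32851 start sites of all genes. Here and below, a gene was counted if any of its start sites matched, whereas the share over all genes is per start site. The measures are therefore not alike for genes with more than 1 start site. The MCAT element CATTCC, bound by TEAD factors, was found in 5 of the 10 genes and 12.6% of all start sites. AGGTGT, the core of the T-box element, was found in 0 of the 10 genes and 11.8% of all start sites, and the MEF2 element in 0 and 2.92%. The letters AGATAA, an element for cardiac zinc finger factors, were found in 2 of the 10 genes and 9.99% of start sites, and TATAAA in 2 and 12.4%. Other spellings near AGATAA, such as the TGATAA in the Myl7 stretch below, were not searched. None of the matches in the 10 genes overlapped another. These are letter matches and not tested sites. For Myl2 the stretches searched were chr5:122092474-122092723 and chr5:122092939-122093188, well upstream of the annotated gene, which begins at 122100951. The bases directly before that position were not searched, so the counts given do not cover them. The stretches searched for Myl1, Myl6, Mylpf, Mylk and Mylk3 lay inside the span of the annotated gene. For Myl6 the CArG match lay in chr10:128493010-128493259, and chr10:128493887-128494136, nearer the outer end of the gene, had none. The stretch of Myl4 ran into Cdc27, which starts 43 bases away on the opposite strand. The sequences of Myl7, Myl3 and Myl9 are shown because these genes share the CArG match and were called changed in the KO atria, in opposite directions. They are written on the strand of the gene, up to the exon at the RefSeq start, with the CArG and MCAT matches in capitals. Myl7 is shown from chr11:5898783-5899032 (minus strand), Myl3 from chr9:110763428-110763645 (plus strand, inside an intron of a longer annotated Myl3 transcript that starts upstream, at 110741861) and Myl9 from chr2:156775214-156775419 (plus strand).
Myl7: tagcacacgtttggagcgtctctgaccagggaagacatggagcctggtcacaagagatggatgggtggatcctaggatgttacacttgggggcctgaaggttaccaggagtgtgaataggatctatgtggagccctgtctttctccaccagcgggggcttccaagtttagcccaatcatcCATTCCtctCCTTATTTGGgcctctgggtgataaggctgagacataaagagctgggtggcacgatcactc
Myl3: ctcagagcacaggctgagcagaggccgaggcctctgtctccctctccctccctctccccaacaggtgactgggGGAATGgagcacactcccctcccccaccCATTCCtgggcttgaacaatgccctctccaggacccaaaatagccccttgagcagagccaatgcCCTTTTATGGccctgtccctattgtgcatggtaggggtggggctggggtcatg
Myl9: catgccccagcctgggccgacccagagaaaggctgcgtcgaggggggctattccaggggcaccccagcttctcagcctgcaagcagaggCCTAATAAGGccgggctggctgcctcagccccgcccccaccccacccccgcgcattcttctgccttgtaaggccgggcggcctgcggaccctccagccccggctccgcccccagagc

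The libraries held 34002292 to 40588007 counts. Chd4, the targeted gene, was at 169, 185, 187 and 199 CPM (read counts scaled to a library of 1e+06 with TMM factors) in KO and at 278, 297, 284 and 308 CPM in control. It fell by 0.66 on the log2 scale (SE 0.06, edgeR adjusted p = 1.86e-05). The atrial markers Nppa, Sln, Bmp10, Tbx5, Gja5, Nr2f1 and Stard10 were detected in every library, and 6 of these 7 fell, beside 13.1% of all genes tested. KO 2 and control 2 stood apart from the others on the second principal component, and Y-linked Ddx3y was below 1 CPM in KO 2, control 1 and control 2 and above 100 CPM elsewhere.

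Of the 10 genes, 4 fell (Myl7, Myl4, Myl9 and Mylk3), 1 rose (Myl3) and 5 were not called by edgeR at an adjusted p under 0.05. Over all 18033 genes tested, 13.1% fell and 14.8% rose, 27.9% in all. The median log2 fold change of the 10 genes was -0.37, against 0.01 for all genes tested. The groups did not overlap for Myl7, Myl4 and Mylk3, lower in KO (13.9% of all genes), and for Myl3, higher in KO (15.3%); without regard to direction, 29.2% of all genes had groups that did not overlap. The 10 genes together took 0.81% to 0.95% of the counts in KO and 1.16% to 1.31% in control.

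**Figure D1:**
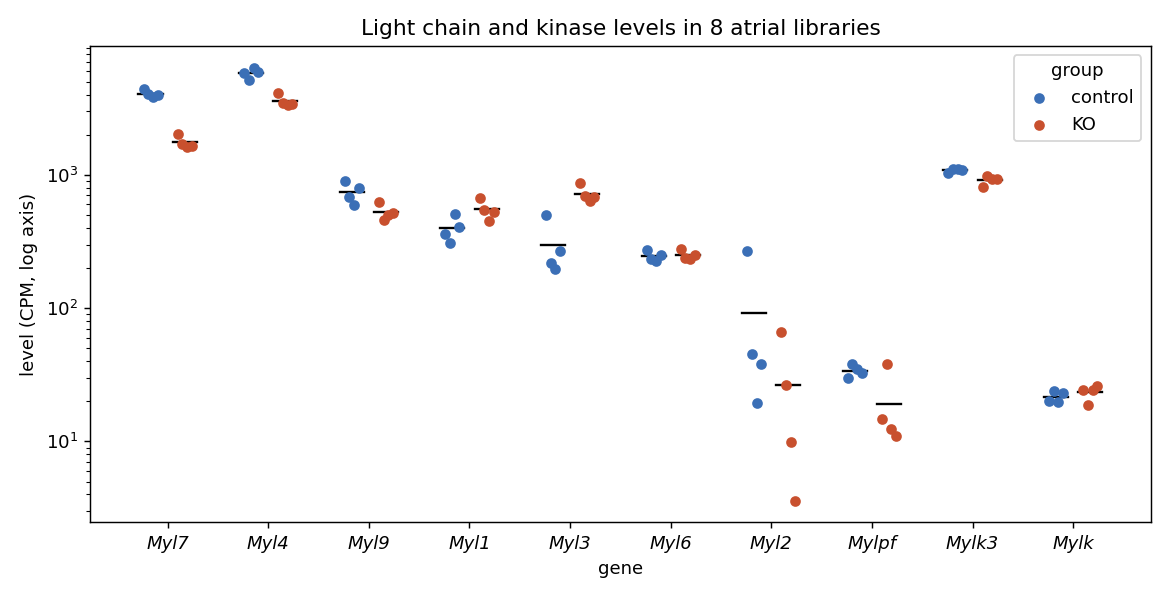
Level of each gene in CPM (log axis) in the 4 control and 4 KO libraries; points are libraries in replicate order from left to right and bars are group means. Myl7 and Myl4 lie lower in all 4 KO libraries and Myl3 lies higher, while control 1 stands far above the other libraries for Myl2 and KO 2 lies among the controls for Mylpf.

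Among the regulatory chains, the atrial form showed the change with the smallest p. Myl7 (ENSMUSG00000020469, chromosome 11, 5896637 to 5898782 on GRCm38, minus strand) was at 4387, 4015, 3813 and 3943 CPM in control libraries 1 to 4. In KO libraries 1 to 4 it was at 2010, 1707, 1617 and 1653 CPM. Every KO library was below every control library, with a gap between the groups wider than the range within either. Myl7 fell 2.31-fold (log2 fold change -1.21, SE 0.08, edgeR adjusted p = 1.25e-06), from a mean of 4040 ± 246 to 1747 ± 179 CPM (SD, n = 4). In bulk RNA, fewer atrial cardiomyocytes and less Myl7 RNA in each cannot be told apart.

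Other values of the tissue moved beside this fall. Summed fibroblast markers were at 6578 to 8638 CPM in KO and 5627 to 6289 CPM in control, with 4 of 6 markers called higher and 0 lower by edgeR and by DESeq2 alike, and 0 lower at an unadjusted p under 0.05. Summed endothelial markers were at 1666 to 1980 CPM in KO and 1467 to 1589 CPM in control, with 4 of 6 called higher and 1 lower. Among all genes tested, edgeR called 14.8% higher and 13.1% lower. The part of these markers in the result was not tested. Measured against Myh6, the cardiac heavy chain that MYL7 partners in the atrium, Myl7 per kilobase of merged exon was 0.768, 0.802, 0.679 and 0.708 times Myh6 in KO. In control the ratio was 1.24, 1.13, 1.15 and 1.04, so the groups did not overlap on this scale either. Myh6 itself had a log2 fold change of -0.59 (edgeR adjusted p = 0.000207), and the ratio does not measure the share of atrial cardiomyocytes.

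Myl2, the ventricular regulatory chain, varied more between libraries than any other of the 10 genes. Myl2 (ENSMUSG00000013936, chromosome 5, 122100951 to 122113472) was at 268, 44.9, 19.5 and 37.8 CPM in control and at 65.8, 26.4, 9.85 and 3.60 CPM in KO. Control 1 alone stood far above the rest, and the groups overlapped. The difference was not called (log2 fold change -1.81, SE 1.20, edgeR adjusted p = 0.318), and without control 1 the log2 fold change was -0.37 (adjusted p = 0.836). Irx4, a transcription factor gene that defines ventricular muscle, was at 3.20 CPM in control 1 and at 0 to 0.403 CPM in the other 7 libraries; its part in the result was not tested.

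Myl9, the smooth muscle regulatory chain, was lower in KO with overlap between the groups. Myl9 (ENSMUSG00000067818, chromosome 2, 156775420 to 156781658) was at 898, 680, 593 and 791 CPM in control and at 628, 462, 499 and 517 CPM in KO. KO 1 lay above control 3, and the other KO libraries lay below all controls. Myl9 fell 1.41-fold (log2 fold change -0.49, SE 0.13, edgeR adjusted p = 0.0191). The call was lost without KO 2 (0.0530), KO 3 (0.0530), KO 4 (0.0534) or control 4 (0.0525), against controls 3 and 4 alone (0.0685), without KO 2 and control 2 together (0.0601) and with no filter on low counts (0.0927). Of 7 smooth muscle markers, 3 rose (Tagln, Cnn1 and Lmod1) and 1 fell (Acta2), beside 14.8% and 13.1% of all genes tested. The summed level of the 7 markers was 317 to 398 CPM in KO and 366 to 613 CPM in control, and its part in the result was not tested.

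Mylpf, the fast skeletal regulatory chain, split the KO group. Mylpf (ENSMUSG00000030672, chromosome 7, 127208890 to 127214298) was at 29.8, 38.3, 34.9 and 32.7 CPM in control and at 14.7, 37.95, 12.5 and 10.9 CPM in KO. KO 2 lay among the controls and the other 3 KO libraries lay below them. The difference was not called over all libraries (log2 fold change -0.83, SE 0.42, edgeR adjusted p = 0.193). Without KO 2 Mylpf was called lower (log2 fold change -1.42, adjusted p = 1.89e-05). The fast skeletal heavy chain gene Myh4, whose pattern over the libraries was the most like that of Mylpf, was at 122, 327, 82.3 and 73.5 CPM in KO, and control libraries were at 301, 378, 350 and 326 CPM.

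Of 12 skeletal muscle markers 8 were tested, of which 1 rose (Neb), 1 fell (Myh2) and 6 were not called, with a median log2 fold change of -0.995. Among all genes tested, 27.9% were called, so the number of markers called is near that share. The summed level of the 12 markers was 367 to 906 CPM in KO, highest in KO 2, and 695 to 850 CPM in control. The factors Myod1, Myog and Pax7 that define skeletal muscle cells had 42, 12 and 11 counts over the 8 libraries and were not tested. What part other muscle tissue in the dissected samples had in Mylpf was not tested.

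Of the essential chains, Myl4 fell and Myl3 rose. Myl4, the atrial and fetal form (ENSMUSG00000061086, chromosome 11, 104550663 to 104595753), was at 5829, 5129, 6370 and 5944 CPM in control and at 4113, 3438, 3341 and 3371 CPM in KO. All KO libraries were below all controls, and KO 1 stood above the other KO libraries. Myl4 fell 1.63-fold (log2 fold change -0.71, SE 0.09, edgeR adjusted p = 0.000124). Relative to Myh6 it was at 0.200, 0.205, 0.179 and 0.184 in KO and 0.210, 0.184, 0.244 and 0.199 in control, per kilobase of merged exon. On this scale the groups overlapped, unlike those of Myl7.

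Myl3, the ventricular and slow muscle essential chain, was the single member that rose. Myl3 (ENSMUSG00000059741, chromosome 9, 110741861 to 110769798) was at 872, 697, 641 and 681 CPM in KO and at 499.6, 217, 196 and 267 CPM in control. Every KO library was above every control library, and control 1 was the highest control. Myl3 rose 2.45-fold (log2 fold change 1.29, SE 0.31, edgeR adjusted p = 0.0208). The call was lost without KO 1 (0.0596), control 2 (0.0581) or control 4 (0.0579), against controls 1 and 2 alone (0.126), without KO 2 and control 2 together (0.113) and with no filter on low counts (0.0513). Without control 1 the difference was larger and the call was kept (log2 fold change 1.67, adjusted p = 2.49e-05).

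The ventricular chains were set against each other within each library. In KO 4, with the lowest Myl2 of all libraries, Myl3 was at 681 CPM, above every control. Counts of Myl3 exceeded those of Myl2 by 13.3-fold, 26.4-fold, 65.1-fold and 189-fold in KO and by 1.87-fold, 4.83-fold, 10.1-fold and 7.06-fold in control. These ratios did not overlap, and control 1 had the lowest. They rest on Myl2 counts as low as 133, in KO 4. Of 5 other ventricular markers tested, Pln rose, Fhl2 fell, and Hey2, Irx5 and Myh7 were not called, beside 27.9% called among all genes tested. The summed level of these markers with Irx4 was 868 to 927 CPM in KO and 953 to 1221 CPM in control, highest in control 1. Irx4 was at 0 to 0.236 CPM in KO. What part ventricular tissue in the dissected samples had in Myl3 was not tested.

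**Figure D2:**
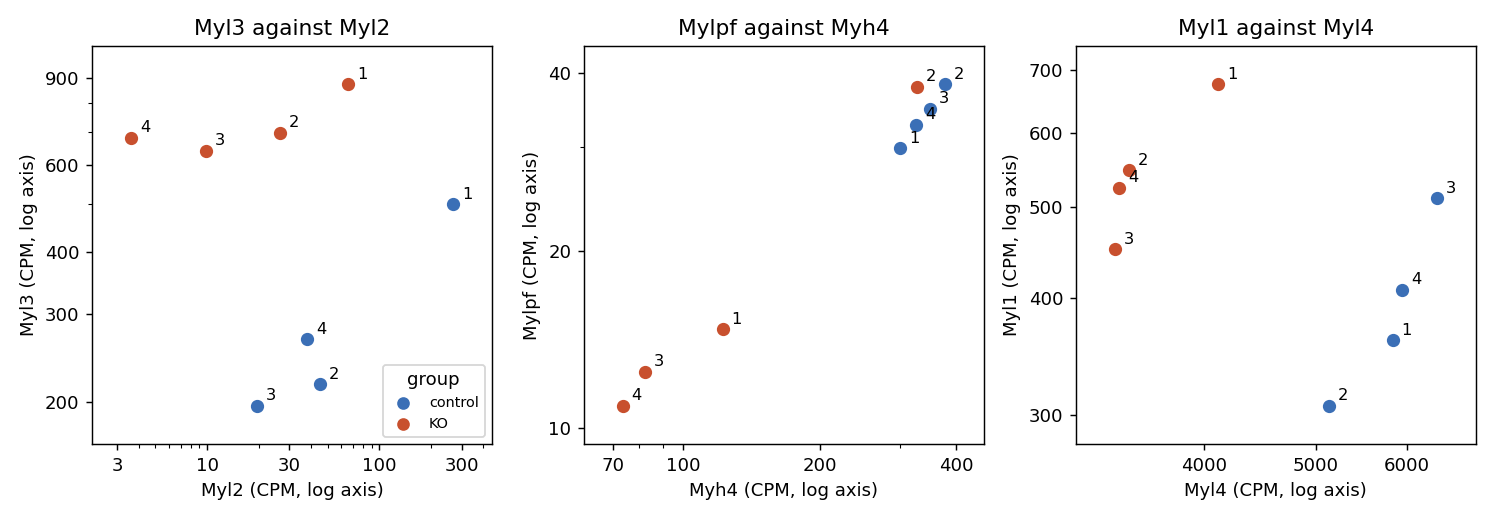
Library by library levels in CPM (log axes) of Myl3 against Myl2, Mylpf against Myh4 and Myl1 against Myl4; colours mark the groups and digits the replicates. The KO libraries lie above the controls for Myl3, while the groups overlap for Myl2. KO 2 lies with the controls for Mylpf and Myh4, and Myl1 keeps the order of Myl4 within each group.

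Myl1, the fast skeletal essential chain, was abundant in atria although its partner Mylpf was not. Myl1 (ENSMUSG00000061816, chromosome 1, 66924295 to 66945404) was at 675, 547, 451 and 524 CPM in KO and at 360, 307, 511 and 408 CPM in control. The groups overlapped through control 3, which lay above KO 3. The difference was not called (log2 fold change 0.47, SE 0.17, edgeR adjusted p = 0.0636). It was called higher without KO 3 (0.0430) or control 3 (0.0112), against controls 1 and 2 alone (0.0150), by DESeq2 (0.0126), with scaling by total counts (0.0292) and with a filter at 1 CPM (0.0483). Within each group the libraries had the same order for Myl1 as for Myl4, from KO 1 through KO 2 and KO 4 to KO 3, and from control 3 through control 4 and control 1 to control 2. The gene has alternative starts that give long and short MYL1 proteins, and the counts per gene do not separate them.

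Myl6, the essential chain of smooth muscle and most other cells (ENSMUSG00000090841, chromosome 10, 128490860 to 128494145), was at 234 to 277 CPM in KO and 225 to 274 CPM in control. The ranges were nearly the same. Its log2 fold change was 0.03 (SE 0.08, edgeR adjusted p = 0.822), and the sign turned under some alternatives.

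**Figure D3:**
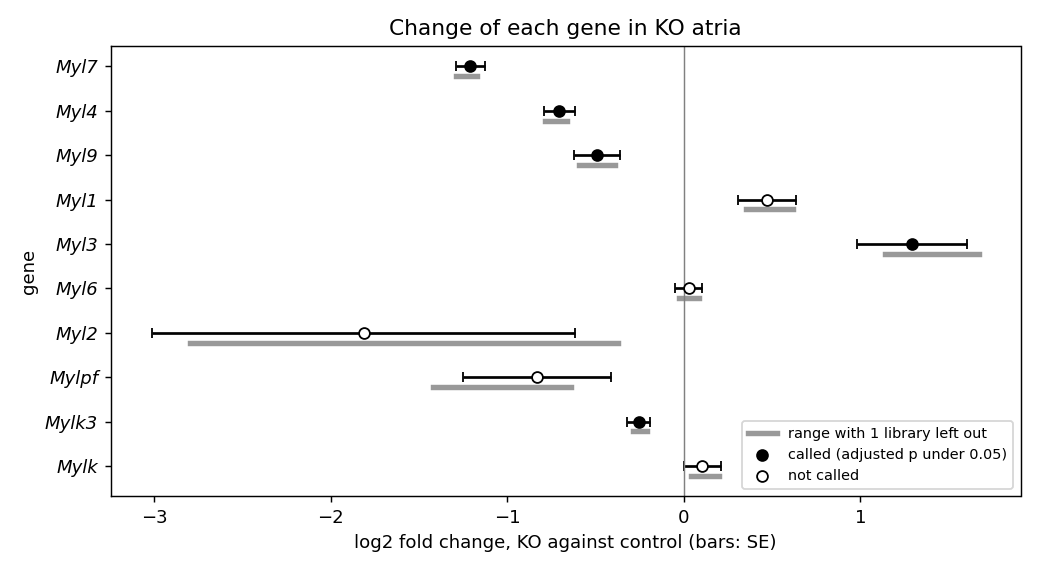
Log2 fold change of each gene in KO against control, with SE bars; filled points were called by edgeR at an adjusted p under 0.05 and open points were not, and grey bars give the range when each library was left out in turn. Myl7 at -1.21 and Myl3 at 1.29 mark the largest called changes in each direction, and the bars of Myl2 and Mylpf are the widest.

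To set different genes side by side, CPM was divided by gene length. With all exons of a gene merged, Myl7 came first in control at 6847 ± 418 CPM per kilobase, followed by Myl4 (1255 ± 111), Myl9 (637 ± 114), Mylk3 (253 ± 8.84), Myl1 (191 ± 41.9) and Myl3 (144 ± 68.4, SD, n = 4). Mylk was last at 1.93 ± 0.176 CPM per kilobase. Myl1 and Myl3 did not differ beyond their spread, and neither did Myl2 (47.4 ± 60.2) and Mylpf (32.0 ± 3.37). In KO, Myl3 stood at 354 ± 50.1 CPM per kilobase and Myl1 at 265 ± 45.1, both above Mylk3 at 212 ± 15.8.

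The order depended on the length chosen. Merged exons of Myl4 span 4637 bases, which include a retained intron, while its longest principal transcript has 943 bases. Myl7 has 1 annotated transcript of 590 bases. By principal transcript, a choice made after the lengths were seen, Myl7 was at 6847 ± 418 and Myl4 at 6170 ± 546 CPM per kilobase in control, a difference of the size of their spread. In KO they were at 2961 ± 304 and 3781 ± 389, with Myl4 first. By this length Myl1 (494 ± 108) and Myl3 (315 ± 149) stood above Mylk3 (293 ± 10.2) in control already, though for Myl3 the difference was within its spread.

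The makeup of each light chain pool was described from these per-kilobase levels, with no test, because the genes were chosen with results known. Myl4 made up 75.4% ± 2.70 of the essential chains in control and 52.5% ± 1.29 in KO (SD, n = 4). Myl3 went the other way, from 8.60% ± 3.67 to 24.1% ± 0.449, and Myl1, whose level was not called changed, from 11.4% ± 1.76 to 18.0% ± 1.10. Shares are relative, so the fall of Myl4 raises those of the other chains. Even Myl6, with nearly the same level in both groups, went from 4.64% ± 0.497 to 5.37% ± 0.290. In single libraries Myl3 made up 23.7% to 24.7% in KO and 5.37% to 13.9% in control. By principal transcript length the share of Myl4 was 84.0% ± 1.63 in control and 67.4% ± 1.03 in KO, and that of Myl3 4.28% ± 1.91 and 13.7% ± 0.374.

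The regulatory pool stayed mostly Myl7. Myl7 made up 88.8% to 92.1% of it in control and 85.3% to 86.6% in KO, by merged exons. Myl9 took 7.28% to 9.23% in control and 11.9% to 13.6% in KO, although its own level was lower there. Myl2 took at most 1.64%, in control 1, and Mylpf at most 1.07%, in KO 2; by principal transcript the highest shares were 3.51% and 1.47%. Summed per-kilobase levels of the regulatory chains were 7564 ± 575 in control and 3445 ± 372 in KO, while those of the essential chains were 1667 ± 161 and 1466 ± 178. By principal transcript the essential chains together were at 0.853 to 1.13 times the regulatory chains in control and at 1.60 to 1.63 times in KO, without overlap.

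**Figure D4:**
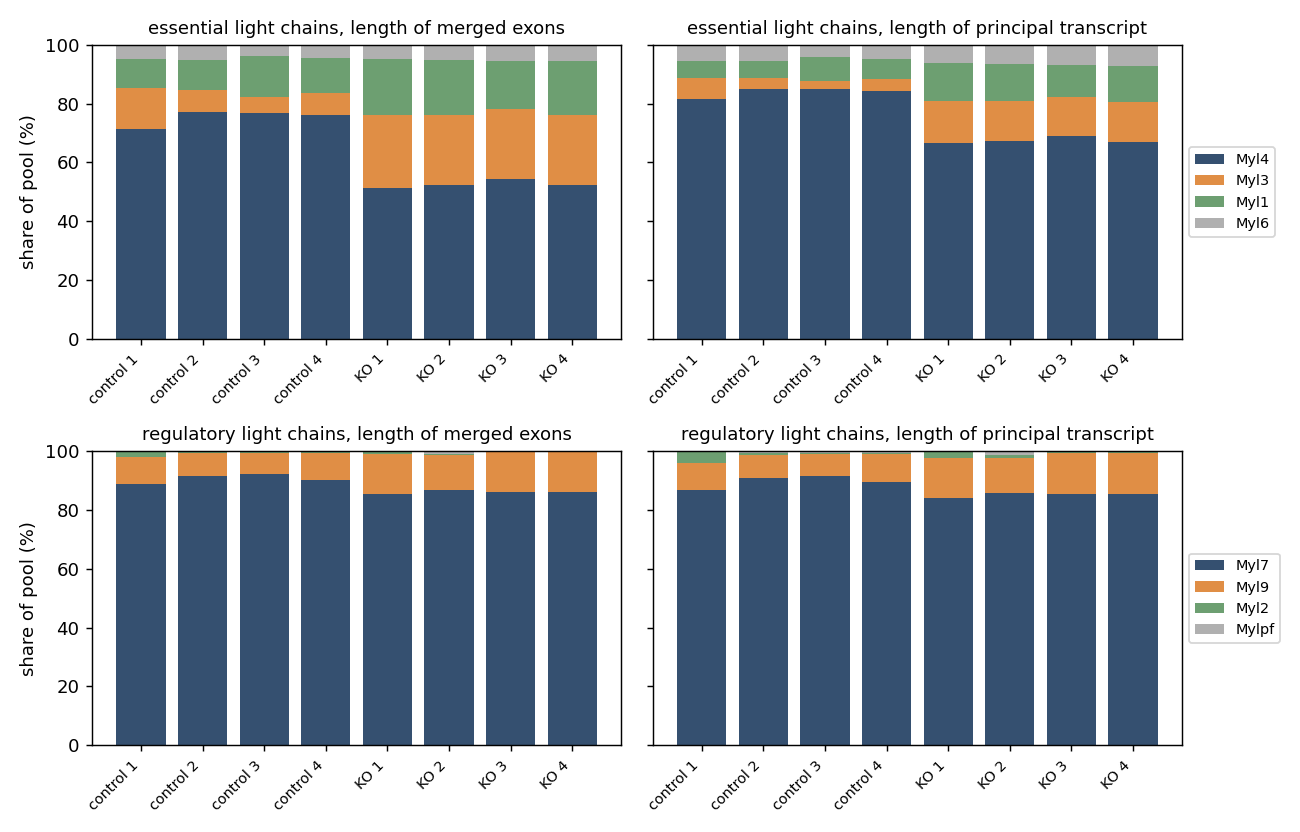
Share of each gene in the summed per-kilobase level of the essential chains (top) and regulatory chains (bottom) in every library, with gene length taken as merged exons (left) or longest principal transcript (right). In all 4 KO libraries Myl4 holds a smaller and Myl3 and Myl1 a larger share of the essential pool than in any control, under both lengths, and Myl7 holds most of the regulatory pool throughout.

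Of the kinases, the cardiac form was lower in KO. Mylk3 (ENSMUSG00000031698, chromosome 8, 85324303 to 85386345) was at 1031, 1109, 1113 and 1085 CPM in control and at 812, 972, 922 and 925 CPM in KO. All KO libraries were below all controls, though the step was small. Mylk3 fell 1.19-fold (log2 fold change -0.26, SE 0.07, edgeR adjusted p = 0.0137), a call lost with scaling by total counts (0.0899) and against controls 1 and 2 alone (0.0740). Mylk (ENSMUSG00000022836, chromosome 16, 34745210 to 35002420) was at 18.6 to 26.2 CPM in KO and 19.8 to 23.8 CPM in control and was not called (log2 fold change 0.10, SE 0.11, edgeR adjusted p = 0.502). Its counts cover several proteins of the gene, which they do not separate.

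The remaining light chain and kinase genes added 1 called change. Of 6 such genes 5 were tested, and Mylk4 fell while Myl6b, Myl12a, Myl12b and Mylk2 were not called. Among all genes tested, 27.9% were called, 14.8% higher and 13.1% lower. None of these 5 genes was called higher by edgeR or DESeq2, with 1 higher at an unadjusted p under 0.05 (Myl6b, log2 fold change 0.41, edgeR adjusted p = 0.0728). Myl6b was called higher with scaling by total counts (0.0369), by limma-voom (0.0289) and without control 3 (0.0440). Mylk4, a kinase gene of striated muscle, was at 263, 201, 174 and 203 CPM in control and at 165, 123, 92.8 and 155 CPM in KO. No KO library reached a control. It fell 1.57-fold (edgeR adjusted p = 0.0386), a call lost in 4 of the 8 fits without 1 library (KO 2, control 1, control 2 or control 4, 0.0746 to 0.0931). The call was also lost with no filter (0.127), with Y-linked expression as a covariate (0.0804), against controls 1 and 2 alone (0.0699) or controls 3 and 4 alone (0.193), and without KO 2 and control 2 together (0.172). Mylk2, the skeletal muscle kinase, was at 6.37, 10.4, 6.26 and 4.93 CPM in KO and 8.32 to 9.44 CPM in control. It was not called (log2 fold change -0.34, adjusted p = 0.218), but was called lower without KO 2 (log2 fold change -0.60, adjusted p = 0.00766), the library that also set Mylpf apart. Myl12a and Myl12b have overlapping exons, so their reads are uncertain. Myl10 had 19 counts over the 8 libraries and was not tested.

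Of 15 genes that set light chain phosphorylation (calmodulins, a small GTPase and its kinases, and subunits, inhibitors and a partner of myosin phosphatase), 2 rose, 2 fell and 11 were not called, with a median log2 fold change of -0.01. Over all genes tested, 14.8% rose and 13.1% fell, 27.9% in all, so the number called is near the share over all genes. Ppp1r14c, which encodes an inhibitor of protein phosphatase 1, was at 134, 164, 136 and 142 CPM in KO and 198 to 219 CPM in control. It fell 1.44-fold (edgeR adjusted p = 0.000198), but 765 of its exon bases (29.2%) are shared with Gm26752 on the opposite strand, whose reads could not be told apart. Levels of Rock1, a kinase that phosphorylates light chains and inhibits the phosphatase, were 134 ± 4.16 CPM in control and 102 ± 7.28 CPM in KO, a 1.32-fold fall (edgeR adjusted p = 0.000515). Ppp1r12a, the targeting subunit of myosin phosphatase, had a mean of 112 ± 5.52 CPM in control and 136 ± 5.03 CPM in KO. It rose 1.21-fold (edgeR adjusted p = 0.00358) and lost its call against controls 1 and 2 alone (0.0818). Mprip, a partner of that subunit, had a mean of 261 ± 1.96 CPM in control and 313 ± 18.2 CPM in KO. It rose 1.20-fold (edgeR adjusted p = 0.00499) and lost its call against controls 1 and 2 alone (0.0541) and controls 3 and 4 alone (0.0635). The groups of these 4 genes did not overlap. Neither did those of Ppp1cb, another listed gene, which was not called, at 374 to 397 CPM in KO and 409 to 435 CPM in control. Over all genes tested, 29.2% had groups that did not overlap.

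The heavy chains that carry the light chains moved in both directions. Of 13 listed genes 12 were tested, of which 3 rose (Myh9, Myh10 and Myh13), 3 fell (Myh6, Myh14 and Myh2) and 6 were not called. Over all genes tested, 14.8% rose and 13.1% fell. Myh9 and Myh10 are non-muscle chains, and Myh13 was near the floor, at a mean of 0.427 CPM in control and 0.821 CPM in KO. Myh6 was at 24275 to 29831 CPM in KO and 37821 to 43319 CPM in control and fell by 0.59 on the log2 scale (edgeR adjusted p = 0.000207). Among the non-muscle chains, the usual partners of Myl9, Myl12a and Myl6, Myh9 had a mean of 270 ± 8.06 CPM in control and 344 ± 35.5 CPM in KO. It rose 1.27-fold (edgeR adjusted p = 0.00421) and lost its call against controls 1 and 2 alone (0.0579). Myh14 fell 1.57-fold from 121 ± 12.1 to 77.0 ± 12.2 CPM (adjusted p = 0.00162). Myh2, a fast skeletal chain, was at 2.48, 6.07, 2.31 and 1.68 CPM in KO and 6.10 to 8.55 CPM in control. It fell 2.44-fold (adjusted p = 0.0255), a call lost in 5 of the 8 fits without 1 library (without KO 1, KO 3, control 1, control 3 or control 4, 0.0571 to 0.0716), with no filter (0.116) and against controls 1 and 2 alone (0.133) or controls 3 and 4 alone (0.0923).

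Genes with the pattern most like a light chain were sought by Pearson's r of log2 CPM over the 8 libraries, among the 9693 genes whose mean level reached 10 CPM. For Myl7, Myl4 and Myl3, whose groups did not overlap, much of each r reflects the 2 groups. The groups of Myl2 and Mylpf overlapped, so there r also reflects the spread within a group. Each r is given as a description, and a likeness in the order of libraries follows from the choice. For Myl7 these were 4430402I18Rik (r = 0.997), Mb (0.996), the gene of myoglobin, and H2afy2 (0.995), which encodes a macroH2A histone. 4430402I18Rik was at 5.90 to 7.34 CPM in KO and 17.7 to 19.3 CPM in control. The mean of 4430402I18Rik passed the 10 CPM minimum through the control libraries alone. For Myl4 they were Itga7 (0.996), an integrin gene of muscle, Prdx2 (0.995), which encodes a peroxiredoxin, and Ppif (0.994), the gene of mitochondrial cyclophilin D, with log2 fold changes of -0.63, -0.61 and -0.74 beside -0.71 for Myl4. For Myl3 they were Pdlim3 (0.969), Tesc (0.966) and Pxk (0.960). Tesc, which encodes the calcium-binding protein tescalcin, was at 29.9 to 33.4 CPM in KO and at 5.14, 1.51, 1.48 and 2.21 CPM in control. Its mean passed the 10 CPM minimum through the KO libraries alone.

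For Myl2 the nearest patterns were those of Rps23 (r = 0.962), Fmc1 (0.959) and Rps27 (0.947), whose log2 fold changes lay between -0.16 and -0.08. For Mylpf they were the fast skeletal genes Myh4 (0.993), Pvalb (0.987) and Myh1 (0.985). Pvalb, the gene of the calcium buffer parvalbumin, was at 20.5, 45.9, 14.3 and 10.6 CPM in KO, and control libraries were at 39.3, 54.5, 49.5 and 47.0 CPM.

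Protein-coding genes next to some of the 10 genes were read as well, and those named here were chosen after their values were seen. Pold2, a DNA polymerase subunit gene 18345 bases from Myl7, was at 18.2 to 24.9 CPM in KO and 28.3 to 30.3 CPM in control and fell by 0.46 on the log2 scale (edgeR adjusted p = 0.00238). Cdc27, which starts 43 bases from Myl4 on the opposite strand, was not called (log2 fold change 0.17, adjusted p = 0.0615). Next to Mylpf, at 149 bases, Sept1, of the septin family, was at 15.5 to 19.9 CPM in KO and 6.73 to 9.90 CPM in control and rose by 1.03 (adjusted p = 0.000102).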

How the data were processed

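Values were the authors' deposited raw counts, 1 whole number for each gene in each of 8 libraries. The submitters' processing notes name STAR, DESeq2 and build mm10; how reads were assigned to genes, whether by strand and with which annotation is not given in the sources used here. Reads cannot be told apart where exons of these genes overlap others on the opposite strand (among the members, Myl3 with Pth1r, 95 bases; Myl2 with Ccdc63, 60; Mylk with antisense genes, 548 and 224). Columns were matched to samples by vector and number.

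The count test was edgeR 4.0.16 (robust quasi-likelihood) in R 4.3.3, with limma 3.58.1 and DESeq2 1.42.0 as alternatives. filterByExpr (minimum count 10, minimum total 15) kept 18033 genes; TMM factors scaled libraries, and p-values were adjusted by Benjamini-Hochberg over all of them. SE is the log2 fold change divided by the root of the F statistic. Gene positions and lengths are from GENCODE M21 (GRCm38), where 54409 of 54532 identifiers were found.

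The members and gene lists were chosen with earlier results of these data known. Named genes were Chd4, the 10 members, up to 4 genes with the smallest p in each of 3 lists, and the 3 genes most correlated with each of Myl7, Myl4, Myl2, Myl3 and Mylpf; list genes named without a test value, neighbours and markers were added. The lists were other light chain and kinase genes, phosphorylation genes, heavy chains, and markers of 9 cell types; erythroid markers (0 of 3 called by edgeR or DESeq2, 0 at an unadjusted p under 0.05), macrophage markers (3 of 6 higher, 0 lower by edgeR and DESeq2) and epicardial markers (3 of 5 higher, 0 lower by both; 0 of either list lower at an unadjusted p under 0.05) are not used further. Of all 18033 genes tested, edgeR called 14.8% higher and 13.1% lower. Chi-square per degree of freedom between libraries of a group was 12.2 to 31.4, above sampling noise, so no library was a copy. A neighbouring gene is not reported here.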

Additional observations from a re-analysis of the deposited data

Results flagged for a closer look

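A library stood far from the other 3 of its group in 6 of 62 sets of 4 values tested, by the gap to its nearest neighbour as a share of the group's range; chance flags about 1 set in 20. Myl4 in KO 1 was at 4113 CPM, with the next KO library at 3438 CPM. Myl2 in control 1 was at 268 CPM, with the next control at 44.9 CPM, and its share of the regulatory pool there was 1.64%, next to 0.309%. Mylpf in KO 2 was at 37.95 CPM, with the next KO library at 14.7 CPM, and its share of the pool was 1.07%, next to 0.368%. The share of Myl9 in KO 2 was 11.9%, below the next KO library at 13.5%.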

How the results depend on the processing

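Myl7 and Myl4 were called lower in all 8 fits that left out 1 library and all 12 other fits, with log2 fold changes of -1.29 to -1.13 and -0.81 to -0.63. Of the 10 genes, the number called higher was 2 with total counts, by DESeq2 and at 1 CPM in 4 libraries, 0 with no filter on low counts and without KO 2 and control 2 together (an alternative chosen after seeing the data), and 0 to 2 with 1 library left out. The log2 fold change of Myl6 was -0.0417 by limma-voom, -0.0426 against controls 1 and 2 alone and -0.0297 (without KO 1) to 0.0830 with 1 library left out. Against controls 3 and 4 alone 1700 genes were called higher; with total counts 3695 were higher and 1583 lower, against 2677 and 2355. With counts not divided by length the KO minus control shares, in percentage points, were -16.0 for Myl4, 9.82 for Myl3, 1.28 for Myl6, -7.12 for Myl7 and 7.68 for Myl9; with the principal transcript, also chosen after seeing the data, they were -16.6 for Myl4, 9.44 for Myl3 and 1.67 for Myl6. The replicate number as a block left 2474 genes higher and 2283 lower and changed no call among the 10 genes; same-numbered libraries did not all deviate together (r of -0.02, 0.30, -0.06 and 0.11), so the numbers were not taken as pairs. The fold change of Mylpf depended most on KO 2 and that of Myl2 most on control 1. Myl2 also moved without KO 1, to a log2 fold change of -2.80, and was not called there (edgeR adjusted p = 0.185).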
